A study of Mus musculus with 14 samples.

Results

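Collagen genes encode the chains of the main structural proteins of the extracellular matrix, and 41 of them were followed here among 17097 mouse genes measured in epidermal cells. They are all genes whose symbol has the form of a collagen alpha chain, apart from Col17a1, with 1 probe set per gene, the one with the highest mean over the 14 arrays. The samples were RNA of bulge cells, from the hair follicle region where stem cells reside, and of IFE cells, from the interfollicular epidermis that covers the skin between follicles. All came from the epidermis of mice 15 weeks old in homeostasis, that is, with no treatment named. Mice labelled G9a WT gave 3 bulge and 3 IFE arrays, and mice labelled G9a cKO, conditional knockouts of the histone methyltransferase G9a (gene symbol Ehmt2), gave 4 bulge and 4 IFE arrays. The labels used here do not say what drives the deletion, which strain was used, how the cells were separated or whether replicates were separate mice, so p-values measure the spread between these samples only.

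Collagen chains wind around each other into helical molecules, and which chains a cell makes sets which kind of structure can form. Type IV chains build the sheet-like network of basement membranes, type VII forms the fibrils that anchor the epidermis to the dermis, type VI forms beaded filaments, and types I, III and V form the fibrils of the dermis, made mostly by fibroblasts. Epidermal keratinocytes themselves add to the basement membrane they sit on, and the membrane around the bulge is known to differ in make-up from that under the interfollicular epidermis.

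The labels were checked first. One Ehmt2 probe set read 9.63 ± 0.10 for the bulge and 9.67 ± 0.097 for the IFE in WT (mean log2 signal ± SD, n = 3 each), against 5.95 ± 0.071 and 6.01 ± 0.065 in cKO (n = 4 each). The other Ehmt2 probe set, which has the higher mean over the 14 arrays, lay between 7.91 and 7.99 in every group mean, and the part of the transcript that each one reads is not stated in the labels used here. The mean log2 signal of 7 bulge markers (Cd34, Lgr5, Lhx2, Krt15, Sox9, Nfatc1 and Tcf7l2) was 10.7 to 10.79 on the bulge WT arrays and 7.41 to 7.45 on the IFE WT arrays. Replicates 2 and 3 of the cKO stood apart in both compartments: the same markers averaged 9.69 and 9.85 there in bulge cKO, against 10.4 and 10.55 on replicates 1 and 4, and 8.03 on both in IFE cKO, against 7.47 and 7.43. The called collagen differences that involve the cKO, and the larger ones short of the threshold, are therefore also given without these arrays.

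Chromosomal positions and upstream sequences below are those of RefSeq on GRCm38.p6, since the labels used here name no build for the array annotation. The type IV genes lie in head-to-head pairs, with their start sites close together on opposite strands. Col4a1 and Col4a2 on chromosome 8 have start sites 21 bases apart, Col4a3 and Col4a4 on chromosome 1 overlap by 114 bases, and Col4a5 and Col4a6 on chromosome X have 1274 bases between them. The stretches upstream of Col4a6 and Col4a5 are shown because this pair fell in the cKO bulge, and those of Col8a2 and Col6a1 because these genes had the largest bulge over IFE differences. They are read 5′ to 3′ on the strand of the gene, outside annotated genes, at chr4:126286544-126286793 for Col8a2, chr10:76726045-76726294 for Col6a1, chrX:141474096-141474326 for Col4a6 and chrX:141475169-141475369 for Col4a5. Capitals mark every match to GGGCGG or CCGCCC (a GC box on either strand), CCAAT or ATTGG, and TATAAA or TTTATA, with overlapping matches merged.
Col8a2: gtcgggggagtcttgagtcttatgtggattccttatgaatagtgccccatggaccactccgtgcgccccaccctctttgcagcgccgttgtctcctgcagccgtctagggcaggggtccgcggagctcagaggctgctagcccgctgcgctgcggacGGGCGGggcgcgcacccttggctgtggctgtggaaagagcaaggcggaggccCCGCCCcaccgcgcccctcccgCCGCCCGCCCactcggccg
Col6a1: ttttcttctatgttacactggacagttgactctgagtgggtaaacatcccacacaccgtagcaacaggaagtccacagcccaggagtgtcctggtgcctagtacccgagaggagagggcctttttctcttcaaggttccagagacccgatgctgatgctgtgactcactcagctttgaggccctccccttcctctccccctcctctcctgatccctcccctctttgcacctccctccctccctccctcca
Col4a6: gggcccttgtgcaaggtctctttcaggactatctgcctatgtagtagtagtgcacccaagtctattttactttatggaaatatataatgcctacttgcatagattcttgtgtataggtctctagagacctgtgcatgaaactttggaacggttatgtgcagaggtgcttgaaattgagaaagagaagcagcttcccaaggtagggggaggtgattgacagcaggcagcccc
Col4a5: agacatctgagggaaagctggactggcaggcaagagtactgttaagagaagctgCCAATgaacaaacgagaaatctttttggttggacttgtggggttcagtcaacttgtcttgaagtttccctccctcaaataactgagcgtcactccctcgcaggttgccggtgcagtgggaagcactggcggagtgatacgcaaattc

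These stretches differ in base composition. Col8a2 has 70.0% G or C, 9.6 CpG per 100 bases and 4 GC boxes, whereas Col6a1 has 56.0% G or C, 1.2 CpG per 100 bases and no match to any of the motifs. Col4a6 has 45.5% G or C with a single CpG and no match, and Col4a5 has 49.8% G or C, 2.99 CpG per 100 bases and 1 CCAAT box. Over 32851 upstream windows of 250 bases, the median was 52.4% G or C and 2.4 CpG per 100 bases, and 32.7% held a GC box, 33.8% a CCAAT box and 12.4% a TATA box. Of the 35 windows of the 32 collagen genes listed there, 21 held a GC box, 12 a CCAAT box and 4 a TATA box. A match is a description of letters, not evidence of binding.

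Not every collagen gene gave a clear signal. Array medians lay between 5.76 and 5.84 on the log2 scale, and 13 collagen genes were above the array's median on all 14 arrays, 12 on some and 16 on none. The genes above it throughout included Col7a1, Col6a1, Col6a2, Col18a1, Col16a1, Col4a1, Col4a6, Col5a1 and Col23a1. Those below it throughout included Col1a2, a chain of type I collagen, all but 2 of the 5 measured type VI genes (Col6a3, Col6a4 and Col6a5), and Col9a1, Col9a2, Col10a1, Col11a1 and Col11a2, best known from cartilage. The cartilage genes Col9a3 and Col2a1, in contrast, were above it on 14 and 12 arrays. A signal below the array's median may hold little beyond background, which was not tested, and differences against such a signal are not exact folds.

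In WT mice, the bulge and the IFE differed in 14 of the 41 collagen genes, 11 higher in the bulge and 3 higher in the IFE (limma, adjusted p under 0.05). The share, 34.1%, was near the 35.1% of all genes called in this comparison (18.4% higher and 16.6% lower), so the number called does not set the family apart; the median log2 difference was 0.04 over the collagens and -0.011 over all genes. The groups did not overlap for 14 collagens higher and 4 lower in the bulge, against 47.4% of all genes in either direction, and 18 passed an unadjusted p under 0.05, against 43.7% of all genes. By class, the median was 0.83 over the 6 type IV genes, 0.10 over the 11 fibril-forming genes, 0.001 over the 5 measured type VI genes and -0.04 over the 9 fibril-associated genes. The largest differences were in Col8a2, a short chain collagen best known from the basement membrane of the cornea, in the type VI chains Col6a1 and Col6a2, and in Col5a2, a chain of fibril-forming type V collagen. In such bulk RNA, fewer cells of a type and less RNA per cell cannot be told apart.

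Col8a2 read 10.5, 10.24 and 10.0 on the bulge WT arrays and 4.98, 5.35 and 4.99 on the IFE WT arrays. The groups were far apart and every IFE WT value lay below the array's median, so that the signals differed by 5.14 on the log2 scale (SE 0.388, adjusted p = 5.72e-06). The partner chain Col8a1 did not separate the compartments past the threshold, with a difference of 0.10 (adjusted p = 0.109). Col6a1 read 11.24, 11.20 and 11.34 in the bulge against 7.68, 7.12 and 6.71 in the IFE, a difference of 4.09 (SE 0.398, adjusted p = 2e-05). Col6a2, the chain that assembles with it, read 9.30, 9.32 and 9.07 against 6.05, 6.17 and 6.02, a difference of 3.15 (SE 0.224, adjusted p = 4.29e-06). Both genes lie on chromosome 10, and neither set of groups overlapped. Col5a2 read 9.67, 9.30 and 9.46 in the bulge and 5.48, 5.41 and 5.47 in the IFE, a difference of 4.02 (SE 0.404, adjusted p = 2.36e-05). Its IFE WT values, like those of Col8a2, all lay below the array's median. A second, dimmer Col5a2 probe set gave a smaller difference of 0.93, and a second Col6a2 probe set gave 1.80, so the size depends on the probe set while the direction was shared.

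**Figure D1:**
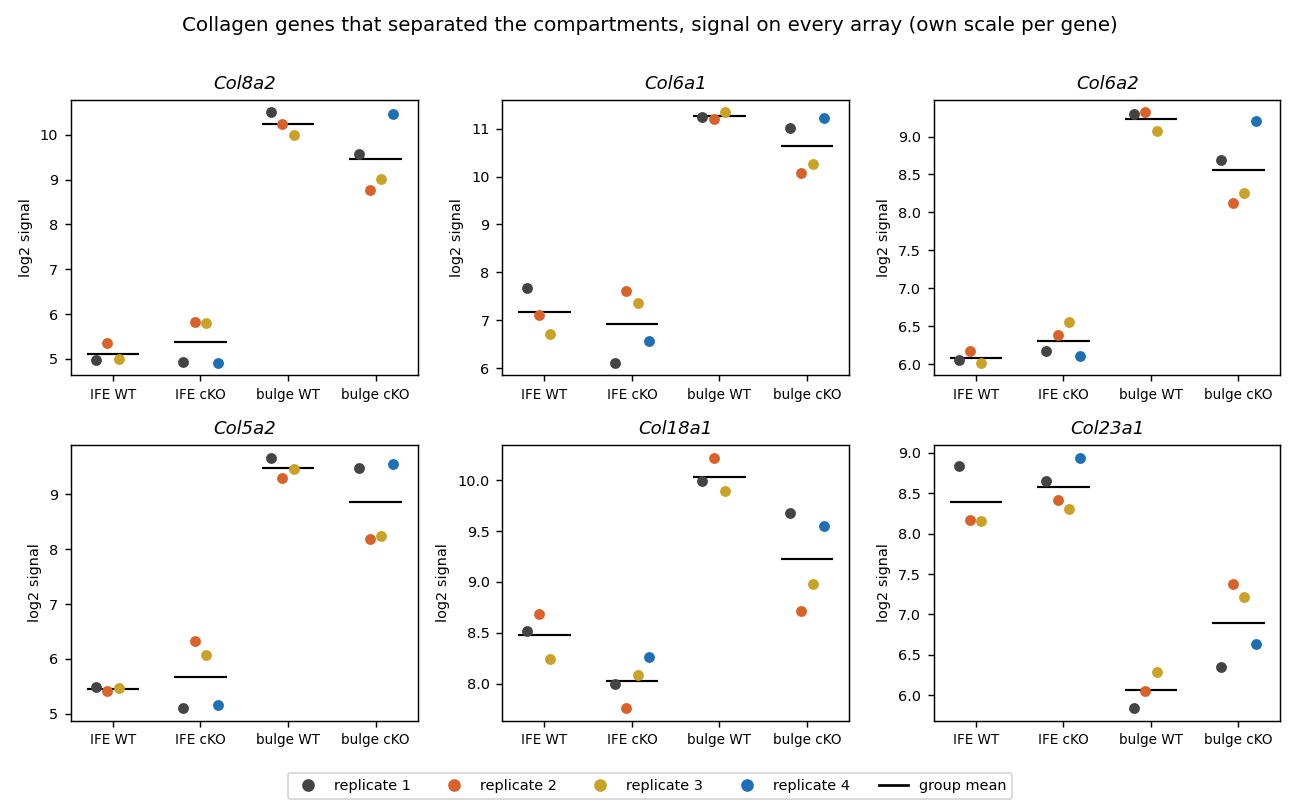
Signal on every array of 6 collagen genes with large differences between compartments, as log2 signal on a scale of its own for each gene (points, coloured by replicate number; black lines, group means; n = 3 arrays in each WT group and 4 in each cKO group). Col8a2, Col6a1, Col6a2, Col5a2 and Col18a1 are higher in both bulge groups than in both IFE groups, Col23a1 is lower, and cKO replicates 2 and 3 lie nearer to the IFE than the other bulge cKO arrays for all 6 genes.

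Of the 6 type IV genes, 4 were higher and 1 was lower in the WT bulge. Col4a1 and Col4a2 encode the chains of the network found in nearly all basement membranes. Col4a1 read 9.13, 9.08 and 8.65 in the bulge against 6.72, 6.98 and 6.89 in the IFE, a difference of 2.09 (SE 0.210, adjusted p = 2.37e-05). Col4a2 read 8.36, 8.17 and 7.75 against 5.61, 5.73 and 5.53, a difference of 2.47 (SE 0.321, adjusted p = 0.000116). Neither pair of groups overlapped, but every IFE WT value of Col4a2 lay below the array's median. Col4a3 and Col4a4, whose products are part of the network of the kidney filter, were dim. They lay at 5.84 and 5.89 in the bulge mean against 5.16 and 4.90 in the IFE mean. The differences were 0.68 (adjusted p = 0.00597) and 0.98 (adjusted p = 0.00109). The other pair ran the other way or not at all. Col4a6, which with Col4a5 gives a chain of the epidermal basement membrane network, read 7.60, 7.54 and 7.62 in the bulge and 8.02, 8.03 and 8.07 in the IFE, a difference of -0.46 (adjusted p = 0.00159). Col4a5 gave -0.12 (adjusted p = 0.25), and its groups overlapped.

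**Figure D2:**
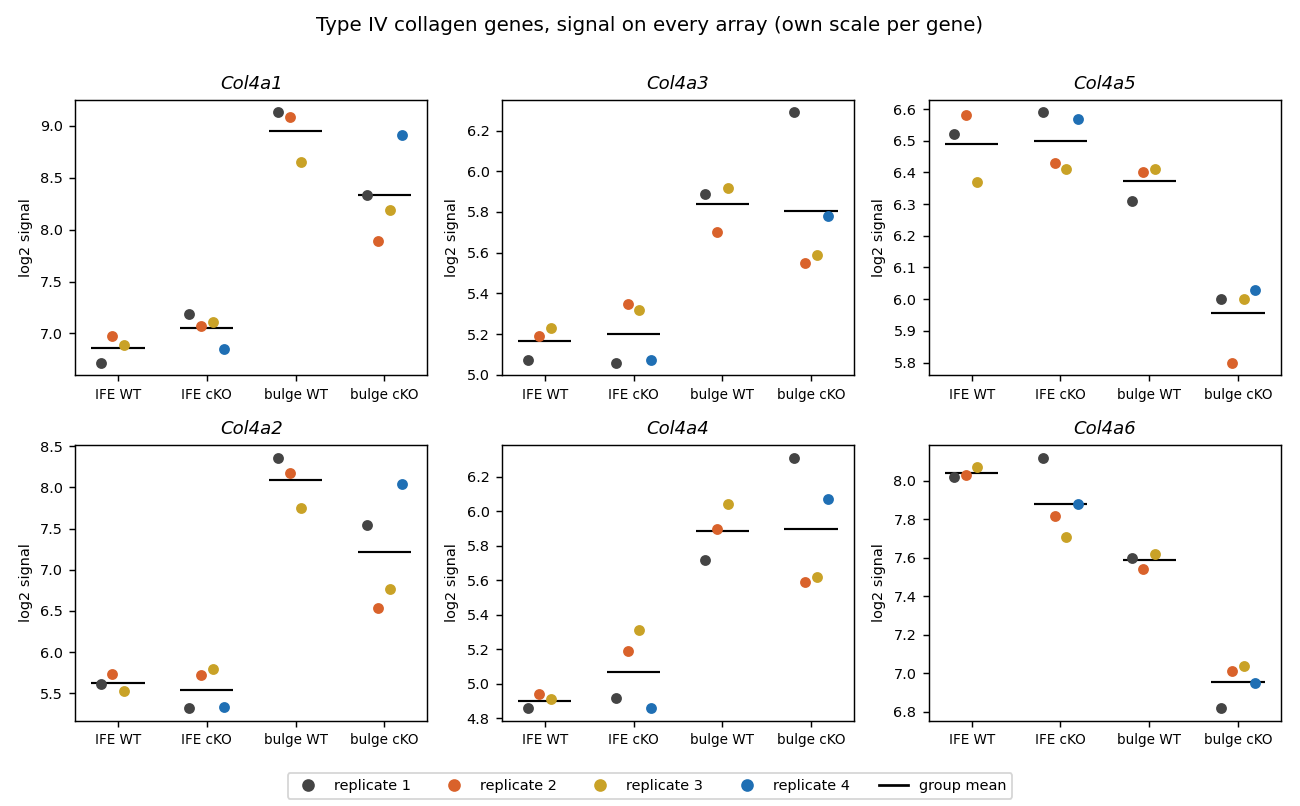
Signal on every array of the 6 type IV genes Col4a1 to Col4a6, as log2 signal on a scale of its own for each gene (points, coloured by replicate number; black lines, group means). Col4a1 to Col4a4 are higher in both bulge groups, whereas in Col4a5 and Col4a6 all 4 bulge cKO arrays lie below the arrays of the 3 other groups.

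Other collagens of the basement membrane zone followed. Col18a1, a proteoglycan collagen of basement membranes whose end piece is endostatin, read 9.99, 10.22 and 9.89 in the bulge and 8.52, 8.68 and 8.24 in the IFE, a difference of 1.55 (SE 0.227, adjusted p = 0.000252) with no overlap. Col7a1, the anchoring fibril gene, read 9.57, 9.80 and 9.78 against 9.17, 9.30 and 9.18, a difference of 0.50 (SE 0.0996, adjusted p = 0.00192). Col5a1 was higher in the bulge by 0.66 (adjusted p = 0.00287), although its 2 other probe sets gave only 0.13 and 0.38. In the other direction, Col23a1, a transmembrane collagen, read 5.84, 6.05 and 6.29 in the bulge and 8.84, 8.17 and 8.16 in the IFE, a difference of -2.33 (SE 0.273, adjusted p = 6.14e-05), and its 2 other probe sets gave -3.43 and -2.02. Col16a1, a fibril-associated collagen, differed by -0.40 (adjusted p = 0.025) with overlapping groups; the call was lost when replicate 1 or 3 of bulge WT, or 2 or 3 of IFE WT, was left out, where the value lay between -0.37 and -0.31. Of the 27 genes not called, 25 had a 95% interval within 1 log2 unit of 0; Col1a1 and Col3a1, the main fibrillar genes of the dermis, had wider ones.

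**Figure D3:**
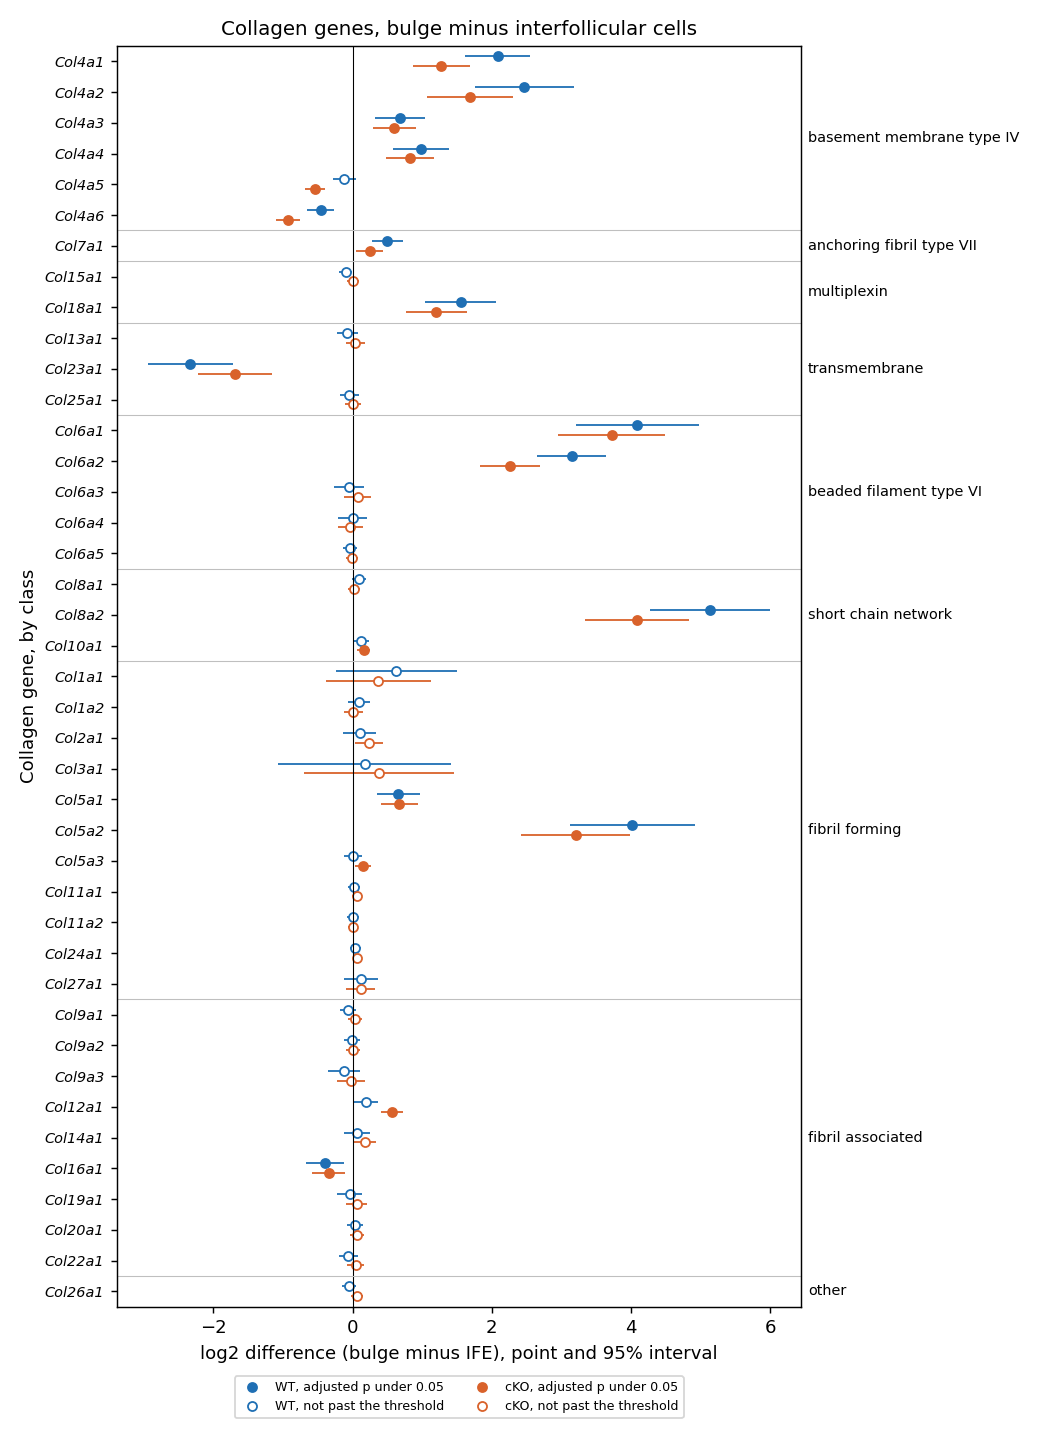
Log2 difference between bulge and IFE of the 41 collagen genes, by class, in WT (blue) and cKO (orange), with 95% intervals; filled points passed an adjusted p of 0.05 in limma. The points run from -2.33 for Col23a1 to 5.14 for Col8a2, both in WT, and Col8a2 lies at 4.09 in cKO.

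The cKO compartments differed in 18 collagen genes, 14 higher and 4 lower in the bulge, which is 43.9% of the 41 against 32.1% of all genes (17.6% higher and 14.6% lower). The groups did not overlap for 15 higher and 4 lower, against 33% of all genes, and 21 passed an unadjusted p under 0.05, against 42.8%. All 14 genes called in WT were called in the same direction in cKO. Set side by side, the cKO and WT differences were 4.09 and 5.14 for Col8a2, 2.26 and 3.15 for Col6a2, 1.28 and 2.09 for Col4a1, and 0.67 and 0.66 for Col5a1. The WT values are those by which these genes were picked, and no change of the difference passed the test given further on. A fit that dropped replicates 2 and 3 of the cKO in both compartments gave 5.09 for Col8a2, 4.77 for Col6a1, 4.39 for Col5a2, 2.81 for Col6a2, 2.47 for Col4a2 and 1.6 for Col4a1. Then 15 collagens were called, where 24.5% of all genes were, and the calls lost were those of Col10a1 (0.20, adjusted p = 0.051), Col16a1 (-0.44, adjusted p = 0.0774) and Col5a3 (0.13, adjusted p = 0.23). In that fit Col18a1 gave 1.48, Col23a1 -2.31, Col4a6 -1.12, Col4a5 -0.56, Col12a1 0.56, Col4a4 1.3, Col4a3 0.97, Col5a1 0.86 and Col7a1 0.35, all still called.

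Genes called in cKO only were Col4a5, lower in the bulge by 0.54 on the log2 scale (-0.54, SE 0.0648, adjusted p = 0.000205), and Col12a1, Col10a1 and Col5a3, all higher. Col12a1, a fibril-associated collagen, differed by 0.56 (SE 0.0705, adjusted p = 0.000245). Col10a1 and Col5a3 differed by only 0.16 (adjusted p = 0.0164) and 0.15 (adjusted p = 0.0491) at signals below the array's median. Col4a6 differed by -0.93 (SE 0.076, adjusted p = 2.96e-05), and Col7a1 by 0.25 (adjusted p = 0.0457) with overlapping groups. The call of Col7a1 was lost on leaving out any single cKO array except bulge replicate 2, with values of 0.17 to 0.27, and that of Col5a3 on leaving out any except bulge replicate 4, with values of 0.10 to 0.16. The call of Col16a1 was lost without bulge cKO replicate 2 or 4 or IFE cKO replicate 1 or 4, with values of -0.35 to -0.25. A call in one genotype and not in the other does not show that the genotypes differ.

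In the bulge, 3 of the 41 collagen genes passed the threshold between cKO and WT: Col4a6 and Col4a5 were lower in cKO and Col15a1 was higher. That is 7.32% of the collagens against 3.84% of all genes (1.98% higher and 1.85% lower), with medians of 0.01 and 0.013, and at an unadjusted p under 0.05 it was 12 collagens, where the share over all genes was 25.7%. The groups did not overlap for 5 genes that were higher and 3 that were lower in cKO, against 18.5% of all genes in either direction. By class, the median difference was -0.52 over the 6 type IV genes, 5 of them negative, and -0.25 for the type VII gene, against 0.02 over the type VI genes, 0.01 over the 11 fibril-forming genes and 0.06 over the 9 fibril-associated genes. Without bulge cKO replicates 2 and 3 it was -0.32 over the type IV genes, 4 of them negative, -0.12 for the type VII gene, -0.02 over the type VI genes, 0.01 over the fibril-forming genes and -0.01 over the fibril-associated genes. The type VI medians include Col6a3, Col6a4 and Col6a5, below the array's median throughout. With all arrays kept, Col6a1 and Col6a2 gave -0.62 and -0.66. Col8a2 (-0.79), Col18a1 (-0.80) and Col5a2 (-0.61) were also lower, so lower means were not confined to type IV. None of these 5 passed the threshold, and over the 41 genes 22 differences were positive and 19 negative. The count moved with single arrays. It was 9 without bulge cKO replicate 4, adding Col18a1, Col23a1, Col4a1, Col4a2, Col6a2 and Col8a2. Without bulge cKO replicate 1 it was 6. It was 1, Col4a6, without bulge WT replicate 2 or without bulge cKO replicates 2 and 3 together. In the last of these fits 0.678% of all genes were called. The shares over all genes with 1 array left out are not given here, so these moves are not read as particular to the collagens.

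Col4a6 read 6.82, 7.01, 7.04 and 6.95 on the bulge cKO arrays and 7.60, 7.54 and 7.62 on the bulge WT arrays, so all 4 cKO arrays lay below all 3 WT arrays. The log2 difference was -0.63 (SE 0.0821, adjusted p = 0.00207), and a second probe set gave -0.62. Col4a5 read 6.0, 5.8, 6.0 and 6.03 in cKO against 6.31, 6.40 and 6.41 in WT, again with no overlap, and a difference of -0.42 (SE 0.0699, adjusted p = 0.00967). A second, dim Col4a5 probe set gave -0.13. The pair therefore fell together in the bulge, and the fall of Col4a6 did not need cKO replicates 2 and 3: without them it was -0.70 (adjusted p = 0.0107), and that of Col4a5 -0.36 (adjusted p = 0.078). Without bulge WT replicate 2, Col4a5 was no longer called (-0.40). Its call was also lost with only the groups compared and with a fold minimum of 1.5, whereas that of Col4a6 was kept in each of these settings.

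Col15a1, the relative of Col18a1 in the multiplexin class, read 5.83, 5.81, 5.75 and 5.68 in the cKO bulge and 5.58, 5.54 and 5.60 in the WT bulge. The groups did not overlap, but the shift of 0.19 (SE 0.0411, adjusted p = 0.0289) was small and lay at the array's median. The call was lost without bulge cKO replicate 2 or 3 or bulge WT replicate 1 or 2, with values of 0.18 to 0.20, and without both cKO replicates 2 and 3 (0.18, adjusted p = 0.216).

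Of the 11 genes higher in the WT bulge, several had lower means in the cKO bulge without passing the threshold, whereas Col4a4 (0.01), Col4a3 (-0.04) and Col5a1 (-0.04) hardly differed. These 11 genes were picked by their bulge WT values, which also serve as the reference here, so lower cKO means were favoured in advance. Col18a1 read 9.68, 8.71, 8.98 and 9.55 in cKO, all below WT, a difference of -0.80 (SE 0.212, adjusted p = 0.0557). Col4a1 read 8.33, 7.89, 8.19 and 8.91 (difference -0.62, adjusted p = 0.0853) and Col4a2 read 7.54, 6.53, 6.77 and 8.04 (difference -0.87, adjusted p = 0.104). Replicates 2 and 3 were the lowest cKO arrays for each of these. Col8a2 read 9.56, 8.76, 9.02 and 10.47, a difference of -0.79 (adjusted p = 0.195). Col6a1 and Col6a2 gave -0.62 (adjusted p = 0.309) and -0.66 (adjusted p = 0.0863), and Col5a2, at 9.48, 8.19, 8.24 and 9.56, gave -0.61 (adjusted p = 0.322). Col23a1, low in the WT bulge, read 6.35, 7.38, 7.21 and 6.63, a difference of 0.83 (adjusted p = 0.0801).

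Without bulge cKO replicates 2 and 3, these values were closer to 0: -0.42 for Col18a1 (adjusted p = 0.388), -0.33 for Col4a1 (adjusted p = 0.594), -0.30 for Col4a2 (adjusted p = 0.701), -0.28 for Col6a2 (adjusted p = 0.613), -0.23 for Col8a2 (adjusted p = 0.888), -0.14 for Col6a1 (adjusted p = 0.951), 0.04 for Col5a2 (adjusted p = 0.98) and 0.43 for Col23a1 (adjusted p = 0.593). For each of these genes, replicates 2 and 3 were the bulge cKO arrays furthest from bulge WT, so leaving them out had to move the value toward WT. That fit also has fewer cKO arrays, and 0.678% of all genes were called in it, against 3.84% with all arrays. Markers of other cell states also differed among the bulge cKO arrays. The mean log2 signal of 5 measured suprabasal and IFE genes was 7.29 to 7.99 in bulge WT and 7.8, 10, 9.59 and 9.16 in bulge cKO. Replicate 4, at 9.16, was thus above WT as well, so leaving out replicates 2 and 3 did not remove all of this shift. For the 7 bulge markers, the values given above were lowest on replicates 2 and 3. Their part in the collagen values was not tested.

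**Figure D4:**
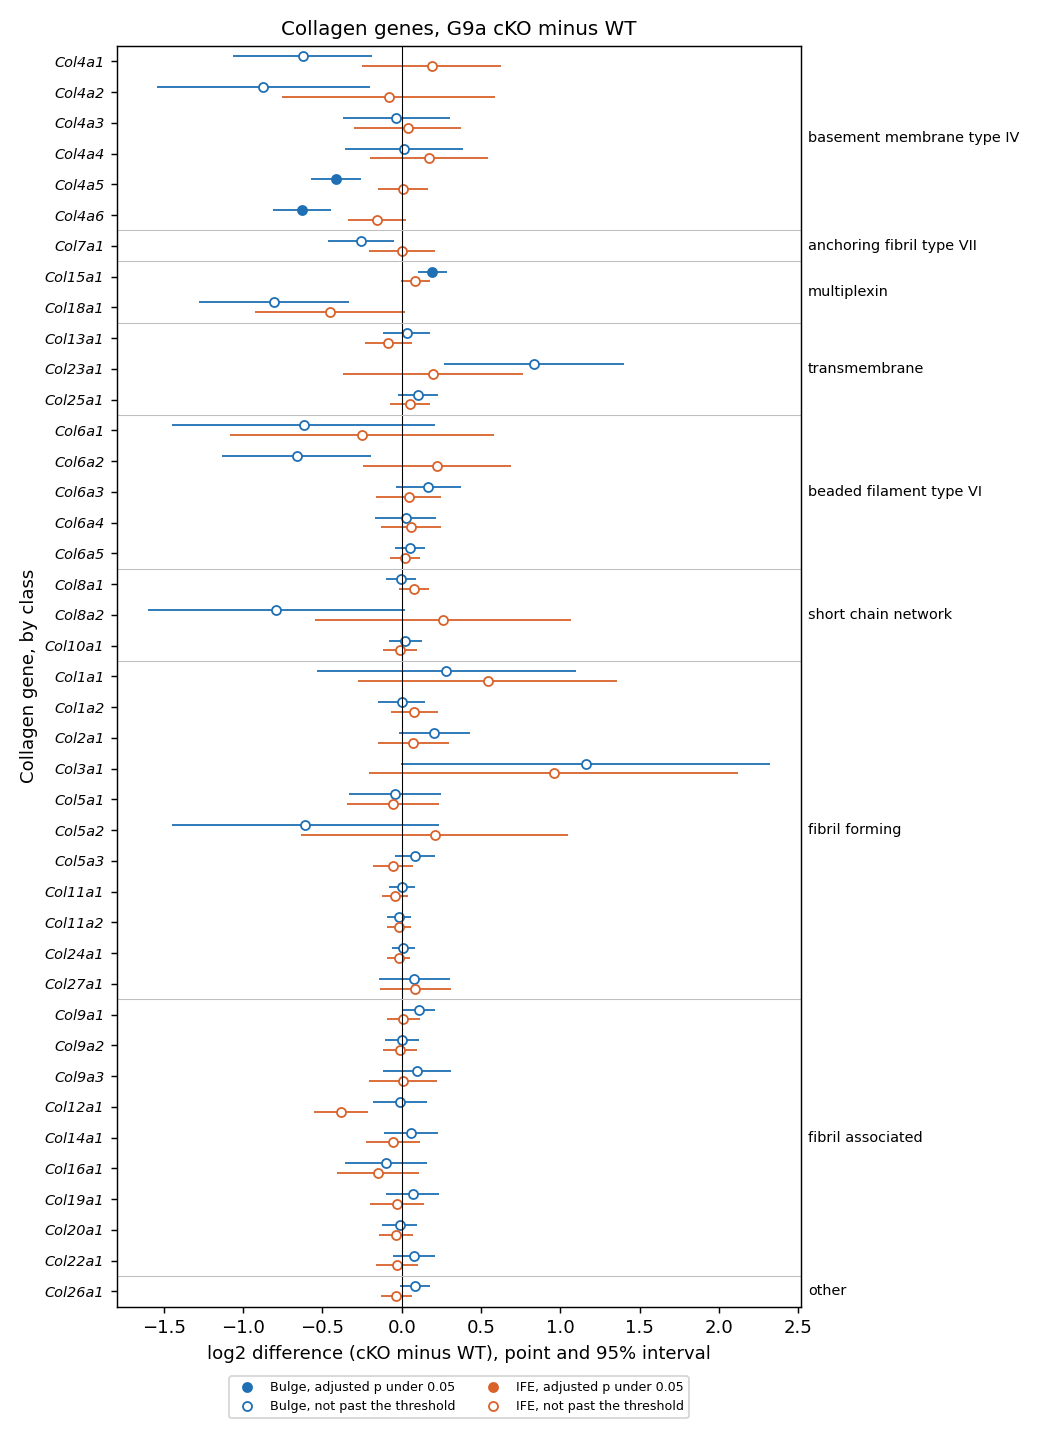
Log2 difference between cKO and WT of the 41 collagen genes, by class, in the bulge (blue) and the IFE (orange), with 95% intervals; filled points passed an adjusted p of 0.05 in limma. The filled points are Col4a5 and Col4a6, lower in the cKO bulge, and Col15a1, higher there; the widest intervals belong to Col3a1, from -0.002 to 2.32 in the bulge.

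Col3a1 and Col1a1, chains of the dermal fibrils, were uneven among the cKO arrays. Col3a1 read 5.46, 7.84, 6.64 and 5.64 in bulge cKO and 5.28, 5.0 and 5.43 in bulge WT, a difference of 1.16 (SE 0.521, adjusted p = 0.187). In the IFE it read 5.40, 6.66, 6.51 and 5.50 in cKO and 5.52, 4.42 and 5.24 in WT, a difference of 0.96 (adjusted p = 0.551). Col1a1 showed the same replicates high, at 7.66 and 6.79 in bulge cKO and 6.90 and 6.61 in IFE cKO, and differed by 0.28 in the bulge (adjusted p = 0.646) and 0.54 in the IFE (adjusted p = 0.665). Without bulge cKO replicates 2 and 3 the bulge differences were 0.32 for Col3a1 and -0.23 for Col1a1, and without those of both compartments the IFE differences were 0.39 and 0.13. A second, dim Col3a1 probe set did not separate the WT compartments (0.00).

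Markers of other cell types were set beside these values. Of 10 fibroblast markers, 5 (Pdgfra, Lum, Dpt, Twist2 and Mfap5) were below the array's median on all 14 arrays, and none was called between cKO and WT in either compartment. The list's mean log2 signal was 5.76 to 5.93 in bulge WT, 5.84 to 6.12 in bulge cKO, 5.88 to 6.0 in IFE WT and 5.87 to 6.0 in IFE cKO. Dcn, the fibroblast proteoglycan decorin, read 6.82, 7.28, 7.3 and 6.67 in bulge cKO against 6.39 to 6.77 in bulge WT. Fbln1 alone of the list ran the other way, at 10.83, 9.83, 10.07 and 11 against 11.21 to 11.47 (difference -0.87, adjusted p = 0.1). The other 9 had positive differences in the bulge, the largest that of Thy1, with means of 7.46 in cKO and 6.14 in WT. Thy1 was higher still in the IFE, with means of 9.41 in cKO and 9.55 in WT, so its signal did not follow that of the 5 dim markers. Of the 10, 4 passed an unadjusted p under 0.05 in limma, where 25.7% of all genes did. The mean of 6 leukocyte markers was 4.89 to 5.17 in bulge WT and 5.33, 6.2, 6.15 and 5.8 in bulge cKO, with Cd74 alone called (0.87, adjusted p = 0.0311; 0.57 and adjusted p = 0.246 without replicates 2 and 3). No endothelial marker of 6 and no dermal papilla marker of 5 was above the median on all arrays, although Emcn, an endothelial gene below it on every array, was called in the cKO bulge (0.28, adjusted p = 0.0391; 0.23 and adjusted p = 0.313 without replicates 2 and 3). Of the others, 1 of 5 measured mural genes, 1 of 5 melanocyte genes and 2 of 3 measured Schwann genes were above it throughout. Between compartments, 4 of the 6 endothelial markers were called higher in bulge cKO than in IFE cKO (66.7%, against 32.1% of all genes). In WT, 1 was called higher and 1 lower in the bulge (33.3%, against 35.1% of all genes). On every array, 4 of the 6 were below the median. Their part in the collagen values was not tested.

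In the IFE, no collagen gene passed the threshold between cKO and WT in limma, against 0.497% of all genes. The collagen median was 0.007 and that of all genes -0.011. At an unadjusted p under 0.05 there was 1 gene, Col12a1, where 11% of all genes passed. Col12a1 read 6.66, 6.70, 6.55 and 6.75 in IFE cKO and 7.09, 7.05 and 7.02 in IFE WT, so the groups did not overlap. The difference was -0.38 (SE 0.0761, adjusted p = 0.0514), just short of the threshold, and -0.35 (adjusted p = 0.097) without cKO replicates 2 and 3. It passed when arrays were weighted and after cyclic loess. It also passed with the mean or the most variable probe set of each gene. Since Col12a1 has 1 probe set, only the values of other genes changed in those settings. In the bulge Col12a1 read 7.28, 7.02, 7.38 and 7.25 in cKO against 7.16, 7.31 and 7.25 in WT, with overlap. Col4a6 and Col4a5 gave -0.16 (adjusted p = 0.529) and 0.01 (adjusted p = 0.983) in the IFE. For 36 of the 41 genes the 95% interval of the IFE difference stayed within 1 log2 unit of 0; for Col1a1, Col3a1, Col5a2, Col6a1 and Col8a2 it did not.

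**Figure D5:**
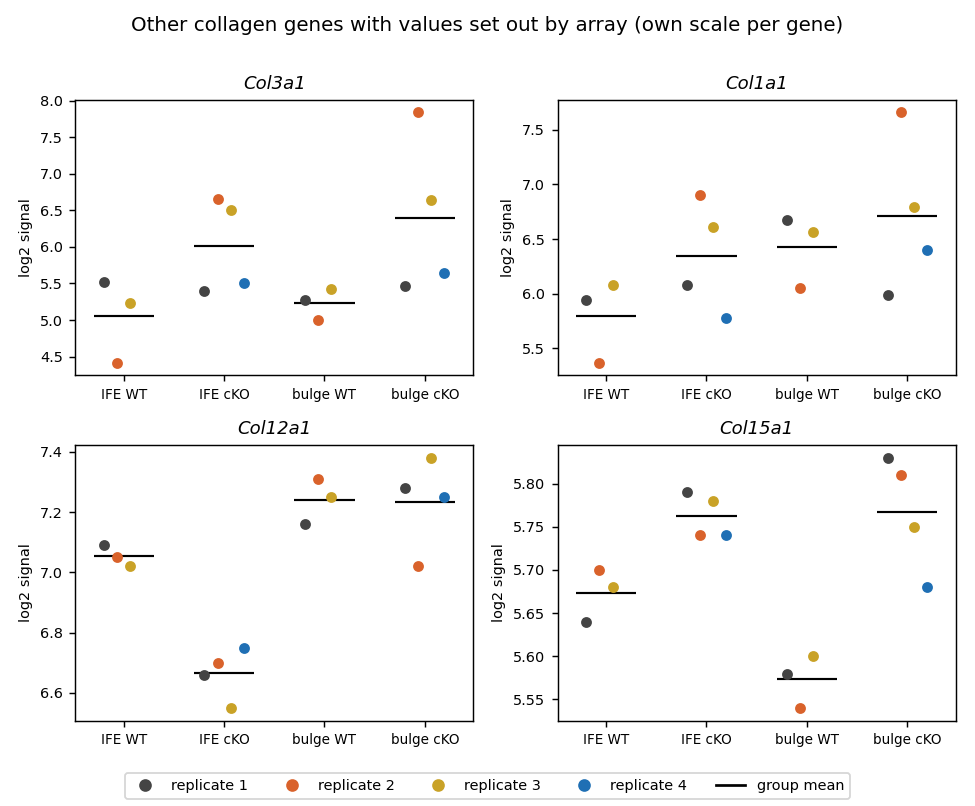
Signal on every array of Col3a1, Col1a1, Col12a1 and Col15a1, as log2 signal on a scale of its own for each gene (points, coloured by replicate number; black lines, group means). Replicates 2 and 3 are the highest cKO arrays for Col3a1 and Col1a1, the 4 IFE cKO arrays lie lowest for Col12a1 at 6.55 to 6.75, and the bulge WT arrays of Col15a1 lie below all bulge cKO arrays.

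Whether the cKO effect differed between bulge and IFE was tested as the difference of the effects. No collagen gene passed, against 0.105% of all genes (18 of 17097; 0.0234% with a higher and 0.0819% with a lower effect in the bulge), and 5 passed an unadjusted p under 0.05, where 14.1% of all genes did. Those were Col4a5 (-0.42, SE 0.0989, adjusted p = 0.162), Col4a6 (-0.47, SE 0.116, adjusted p = 0.179), Col12a1 (0.37, adjusted p = 0.212), Col6a2 (-0.89, adjusted p = 0.242) and Col4a1 (-0.81, adjusted p = 0.25). Without bulge cKO replicate 4, 2 genes passed, Col4a1 and Col6a2, and the share over all genes in that fit is not given here. For Col8a2 the difference of effects was -1.05, with a 95% interval from -2.19 to 0.09. Without cKO replicates 2 and 3 of both compartments the difference of effects was -0.04 for Col8a2, -0.34 for Col6a2 and -0.49 for Col4a1, against -0.45 for Col4a5, -0.66 for Col4a6 and 0.37 for Col12a1, none of them called. The fall of Col4a6, and the less stable fall of Col4a5, were thus measured in the bulge but not shown to be particular to it.

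Genes that build, process or read collagens also differed between the WT compartments, where 35.1% of all genes were called (18.4% higher and 16.6% lower). The enzymes that hydroxylate and glycosylate collagen chains held 4 higher of 13 measured in the WT bulge (30.8%), among them P3h4 (1.12, adjusted p = 0.00114) and Plod3 (0.68, adjusted p = 0.00382). Of 6 chaperone and export genes 2 were higher (33.3%), Mia3 and the collagen chaperone Serpinh1 (1.55, adjusted p = 6.76e-05). Of 11 procollagen proteases and crosslinking enzymes 4 were higher (36.4%), led by Pcolce2, an enhancer of procollagen cleavage (2.78, adjusted p = 2.87e-05), and Tll1, a tolloid protease (2.11, adjusted p = 0.000165). Of 11 collagen receptors 2 were higher and 4 lower (54.5%); Ddr2, a receptor for fibrillar collagen, was lower (-2.14, adjusted p = 5.86e-06), as were Antxr2 (-2.21, adjusted p = 6.32e-05) and Antxr1 (-1.86, adjusted p = 7.49e-06). Of 18 other basement membrane genes 7 were higher and 2 lower (50% called), with Egfl6 (4.11, adjusted p = 6.9e-05), Tnc (2.90, adjusted p = 2.85e-05) and Npnt (2.5, adjusted p = 1.3e-05) the furthest apart. The first 3 shares were near that of all genes. List medians ran from -0.24 for receptors to 0.16 for the basement membrane genes, with -0.011 over all genes. In cKO the same lists held 2, 1, 4, 3 and 6 genes higher in the bulge and 0, 1, 0, 3 and 2 lower, in the order given, where 17.6% of all genes were higher and 14.6% lower.

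Between bulge cKO and bulge WT, where 3.84% of all genes were called (1.98% higher and 1.85% lower), the calls were 1 of the 13 modifying enzymes, 0 of the 6 chaperones, 2 of the 11 proteases and crosslinkers, 1 of the 11 receptors and 3 of the 18 basement membrane genes. Tll1 read 4.49, 4.42, 4.51 and 5.34 in cKO against 7.63, 6.90 and 7.26 in WT, a difference of -2.58 (SE 0.270, adjusted p = 0.000503), and every cKO value lay below the array's median. Adamts3, a procollagen protease, fell by 0.39 (adjusted p = 0.0047) at signals below the median throughout. Ddr2 rose, from 6.41, 6.53 and 6.61 to 7.40, 8.01, 8.08 and 7.60 (1.26, SE 0.153, adjusted p = 0.00137), which is toward its IFE WT mean of 8.65, and was highest on replicates 2 and 3. Plod2, the lysyl hydroxylase of crosslink sites, rose by 0.47 (adjusted p = 0.00967) in the bulge and by 0.43 (adjusted p = 0.0358) in the IFE, without overlap in either. Of the 18 basement membrane genes 3 fell: Hspg2 (perlecan) by 0.78 (adjusted p = 0.0285), Agrn (agrin) by 0.29 (adjusted p = 0.0309) and Lama3 by 0.40 (adjusted p = 0.0414). Without bulge cKO replicates 2 and 3, Tll1 (-2.35, adjusted p = 0.0107) and Ddr2 (0.99, adjusted p = 0.00696) were still called, and Adamts3 (-0.34, adjusted p = 0.0623), Plod2 (0.44, adjusted p = 0.112), Hspg2 (-0.59, adjusted p = 0.257), Agrn (-0.21, adjusted p = 0.222) and Lama3 (-0.23, adjusted p = 0.313) were not. In the IFE, where 0.497% of all genes were called, Plod2 was the only call among these lists and was lost without cKO replicates 2 and 3 (0.46, adjusted p = 0.325), and Tll1 gave -1.34 (adjusted p = 0.054).

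The remaining collagen genes showed little. In all, 22 of the 41 were called in no comparison. Among the fibrillar genes, Col1a2, Col2a1, Col11a1, Col11a2, Col24a1 and Col27a1 had no call, and neither did Col9a1, Col9a2, Col9a3, Col14a1, Col19a1, Col20a1 and Col22a1 among the fibril-associated ones or Col13a1 and Col25a1 among the transmembrane ones. The others were Col8a1, the type VI genes Col6a3, Col6a4 and Col6a5, Col26a1, and Col1a1 and Col3a1, described above.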

How the data were processed

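Biotin-labelled cDNA from 14 RNA samples had been hybridised to Affymetrix arrays. The deposited values are log2 signals normalized with RMA, per the submitters' processing notes; they name no version or parameters. RMA in general models arrays together and compresses differences between dim probe sets. The labels used here give no scan date or other batch, and the number of arrays limits the precision.

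Of 45141 probe sets, 28898 had 1 gene symbol in the platform annotation, 551 several and 15692 none. For 28689 the symbol was taken from the reference table, whether or not it differed. Only probe sets with 1 symbol were used, giving 17097 genes, 7180 of them with several probe sets, and 41 collagens from 67 probe sets. The probe set with the highest mean over the 14 arrays stood for its gene.

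All 14 arrays entered 1 limma fit (R 4.3.3 with limma 3.58.1, its lmFit and eBayes functions, 1 mean per group and 10 residual degrees of freedom). Contrasts were tested two-sided with Benjamini-Hochberg adjustment over all genes and a threshold of 0.05. The 95% confidence intervals use the SE from eBayes with the 10 residual degrees of freedom, fewer than its test uses. They are therefore somewhat wide, and can span both signs where an unadjusted p is under 0.05. The script was tested on simulated data. Python 3.11.15, pandas 2.3.3 and matplotlib 3.10.9 were used for tables and plots.

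The members and lists were chosen with earlier results of these data known. Values are given by array for genes called between genotypes or in the difference of effects, for the 8 called genes furthest apart between WT compartments and for their head-to-head partners; Col3a1, Col1a1, Col12a1 and Col7a1 were added after their values were seen. From each pathway list, up to 4 genes with the smallest p were named per comparison. Alternatives were normalization, the dim-signal filter, the choice of probe set, the fit, a fold minimum of 1.5, replicate blocks and left-out arrays.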

Additional observations from a re-analysis of the deposited data

Results flagged for a closer look

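Of 82 groups of 4 arrays tested for an array far from the others (Dixon's test at the 95% level), 3 had one, and chance alone gives about 1 in 20. For Col10a1, bulge cKO replicate 2 lay lowest at 5.57. For Col4a5, bulge cKO replicate 2 lay lowest at 5.8, and the other 3 arrays lay at 6.0 to 6.03. For Col7a1, IFE cKO replicate 1 lay highest at 9.29, while the other 3 lay at 9.18 to 9.20.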

How the results depend on the processing

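None of the called collagen values reversed its direction under any setting tried. Between bulge cKO and bulge WT, the count of 3 became 16 with array weights, 1 with only the groups compared, 1 with a fold minimum of 1.5, and 1 without cKO replicates 2 and 3 of the bulge or of both compartments; leaving out 1 array gave 1 to 9. Over all genes the 656 calls became 5766 with array weights, 72 with only the groups compared, 224 with the fold minimum, 116 without bulge cKO replicates 2 and 3 and 80 without those of both compartments. Weights were estimated gene by gene, a method chosen after the default one did not converge; they gave bulge cKO replicate 3 the weight 3.74 and replicate 4 the weight 0.35. Between IFE cKO and IFE WT, the count of 0 became 1 with cyclic loess, with probe sets averaged per gene, with the probe set of largest interquartile range and with array weights, and was 0 on leaving out any 1 array; the 85 calls over all genes became 904 with array weights. For the difference of effects, array weights gave 9 in place of 0, and 2520 in place of 18 over all genes; leaving out 1 array gave 0 to 2. The counts between compartments, 14 in WT and 18 in cKO, stayed within 1.5 times, at 13 to 15 and 15 to 17 on leaving out 1 array. The calls over all genes with 1 array left out are not given here. The cause of these moves was not tested.

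Replicate numbers were not taken to pair the samples, since not every pair correlated above 0.1, although cKO replicates 2 and 3 stood apart in both compartments: bulge and IFE samples of the same number had deviations correlating at 0.251, 0.036 and 0.144 in WT and -0.029, 0.11, -0.57 and 0.151 in cKO. With the number as a replicate block, the counts were 3 in the bulge, 0 in the IFE, 0 for the difference of effects, 13 between WT compartments and 15 between cKO compartments, with 412, 33, 2, 5374 and 4673 calls over all genes in the same order. With a block for genotype and number, they were 0 for the difference, 15 in WT and 16 in cKO.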
